A study of Mus musculus with 16 samples.

Results

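The genes Ly6g, Ly6c1, Ly6c2, Ly6a and Ly6e of the mouse Ly6 locus were followed through single-cell RNA-seq (scRNA-seq) libraries of bone marrow (BM) and 2208L mammary tumors. They were taken by symbol, and they are 5 of the 32286 gene rows that each of the 16 deposited matrices holds. 2208L is a Trp53-null mammary tumor model that is transplanted into BALB/c mice, and IACS-70654 is an inhibitor of the CBP/P300 bromodomain. Each library held cells pooled from 3 mice. In BM, CD45+ Ter119- cells and Lin- c-Kit+ cells, the hematopoietic stem and progenitor cells (HSPCs), were sorted separately from 3 groups with 2 libraries each: non–tumor-bearing BALB/c mice labelled ctrl and called WT here, 2208L tumor–bearing mice given vehicle, and 2208L tumor–bearing mice given IACS-70654. Tumors were sorted for viable cells, with 1 library each for vehicle, anti–PD-1, IACS-70654 and a combination. The title of the combination library names no agents, and it is read here as IACS-70654 with anti–PD-1. The combination that the authors describe also held the chemotherapy docetaxel. The series record gives 7 days of treatment, and the authors describe a shorter course for the BM experiment. The labels do not say whether the 2 libraries of a BM group are separate pools or portions of 1 pool, so p-values here measure only the spread between these libraries, which may be technical. With 2 libraries a group an exact permutation test cannot go below p = 0.33, so no single value was tested that way.

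Ly6 proteins are small, disulfide-bonded domains held on the outer cell membrane by a glycosylphosphatidylinositol (GPI) anchor, and most have no signaling domain of their own. Ly6G is the antigen that defines neutrophils and polymorphonuclear myeloid-derived suppressor cells (MDSCs) in mouse flow cytometry. Ly6C, the product of Ly6c1 and Ly6c2, marks inflammatory monocytes and monocytic MDSCs at high levels and neutrophils at lower levels, and is also found on endothelial and plasma cells. Ly6a encodes Sca-1, with which hematopoietic stem cells are sorted, although BALB/c mice carry the haplotype with low Sca-1 on HSPCs. Ly6e is the widely expressed member of the locus and is known to limit entry of some viruses. Ly6a, Ly6c and Ly6e are known interferon-responsive genes. The antibody RB6-8C5, sold as anti–Gr-1, binds Ly6G and more weakly Ly6C, and a Gr-1 antibody was part of the lineage cocktail used to deplete mature cells from the HSPC sort.

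The 5 genes lie within 204 kb on chromosome 15 of mm10 (GRCm38). In the GENCODE vM21 annotation, Ly6e (ENSMUSG00000022587) spans chr15:74955051-74959905 on the forward strand, Ly6a (ENSMUSG00000075602) chr15:74994877-74998031 on the reverse strand, Ly6c1 (ENSMUSG00000079018) chr15:75044018-75048830 on the reverse strand, Ly6c2 (ENSMUSG00000022584) chr15:75108158-75111970 on the reverse strand, and Ly6g (ENSMUSG00000022582) chr15:75155240-75159126 on the forward strand. RefSeq promoter sequences (GRCm38.p6, 250 bases before to 50 after a transcription start) were matched for 3 of the 5 genes, Ly6g, Ly6c1 and Ly6c2. They are shown because all 3 genes fell with IACS-70654 in neutrophils. Capitals mark AGGAAGT, the core that ETS-family factors such as PU.1 recognize, and TATAAA, the TATA box core, each searched on both strands. The 2 motifs do not overlap in these sequences. The windows are chr15:75155079-75155378 on the forward strand for Ly6g, chr15:75048614-75048913 on the reverse strand for Ly6c1 and chr15:75111888-75112187 on the reverse strand for Ly6c2, each written 5′ to 3′ on the strand of its gene:
Ly6g: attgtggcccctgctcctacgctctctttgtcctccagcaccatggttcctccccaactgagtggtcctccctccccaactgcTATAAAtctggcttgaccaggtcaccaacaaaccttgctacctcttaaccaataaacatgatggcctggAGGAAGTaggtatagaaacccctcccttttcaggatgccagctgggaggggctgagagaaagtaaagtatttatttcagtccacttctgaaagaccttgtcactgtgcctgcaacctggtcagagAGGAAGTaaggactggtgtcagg
Ly6c1: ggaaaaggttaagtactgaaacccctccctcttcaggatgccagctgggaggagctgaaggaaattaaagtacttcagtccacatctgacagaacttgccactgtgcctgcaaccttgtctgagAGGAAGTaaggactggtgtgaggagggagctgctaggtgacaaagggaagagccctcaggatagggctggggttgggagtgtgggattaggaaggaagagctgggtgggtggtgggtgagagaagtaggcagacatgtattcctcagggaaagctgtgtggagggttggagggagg
Ly6c2: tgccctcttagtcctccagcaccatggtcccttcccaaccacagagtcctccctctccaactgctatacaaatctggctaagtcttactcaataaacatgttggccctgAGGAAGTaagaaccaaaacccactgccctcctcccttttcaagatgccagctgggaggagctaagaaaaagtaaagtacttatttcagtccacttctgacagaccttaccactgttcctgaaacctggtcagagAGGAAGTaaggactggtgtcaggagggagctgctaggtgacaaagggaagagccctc
The Ly6g window held 2 matches to AGGAAGT and 1 to TATAAA, the Ly6c1 window 1 match to AGGAAGT, and the Ly6c2 window 2. A match to AGGAAGT was found in 9.35% and a match to TATAAA in 13.6% of 32851 RefSeq promoters of this length. RefSeq has another start for each gene. The other Ly6g window, at chr15:75155011-75155310, held 1 match to each motif, that of Ly6c2 held 2 to AGGAAGT, and that of Ly6c1, at chr15:75048788-75049087, held 1 to TATAAA and none to AGGAAGT, so for Ly6g and Ly6c1 the window with more AGGAAGT matches is the one shown. These matches describe letters in the window and no binding was measured.

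Cells were clustered without the 5 genes, and clusters were named from marker genes that held no Ly6 gene. After filtering, 73176 of 77636 barcodes were kept. Total counts were 15590289 to 68415534 unique molecular identifiers (UMIs) per library, and no barcode was shared within a sort. All class names below stand for marker-like clusters. Levels are given as CPM, counts per 1000000, which here is a gene's UMIs scaled by all UMIs of the class in that library, and these 3′ UMI counts were not scaled by gene length, so levels are compared between classes and libraries and not between genes. Changes between BM groups are log2 values ± SE from the quasi-likelihood test of edgeR, and p-values were adjusted by Benjamini and Hochberg's method over all genes tested in the class. A change was called at an adjusted p below 0.01 and a size above 0.5. CPM follow class totals whereas edgeR's TMM factors set the median gene to near 0. In all neutrophils and in the stages from proNeu/preNeu to mature, scaling by totals instead moved the median of all genes by 0.25 to 0.30 for IACS-70654 against vehicle and by -0.25 to -0.13 for vehicle against WT, and the log2 changes below are relative to that shift. In Il1b-high neutrophils it moved by 0.0098 and 0.044.

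Each member had its own range across cell classes. Ly6g was highest in immature BM neutrophils, at a mean of 2272 CPM over 6 libraries, followed by mature neutrophils at 1190.2 CPM and proNeu/preNeu at 489 CPM. The libraries of these stages overlapped in part, since IACS-70654 placed mature neutrophils below vehicle proNeu/preNeu. Ly6c1 was highest in tumor fibroblasts, at 748 CPM, and in BM monocytes, at 715 CPM, which overlapped. Counted apart from Ly6c1, Ly6c2 was highest in tumor plasmacytoid dendritic cells (pDCs), at 709 CPM over libraries from 393 to 1092, and in BM monocytes, at 690.4 CPM. Their libraries overlapped, and the split of reads between Ly6c1 and Ly6c2 is uncertain, so this order is too. Ly6a stood highest in tumor fibroblasts, with 1694 CPM and every library at 937 CPM or more, and next in tumor pDCs at 522 CPM and endothelial cells at 336 CPM, whose libraries overlapped. Ly6e was spread widely, from 998 CPM in tumor monocytes and 913 CPM in BM monocytes down to 10.0 CPM in tumor cells, and every other named class had a mean of 84.6 CPM or more. Plasma cells of BM, at 480 CPM in CD45+ and 404 CPM in HSPC libraries, came next for Ly6c2, before BM pDCs at 296 CPM and tumor monocytes and immature neutrophils, both at 283 CPM. Ly6a was near 0 in most BM classes of these BALB/c mice.

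**Figure D1:**
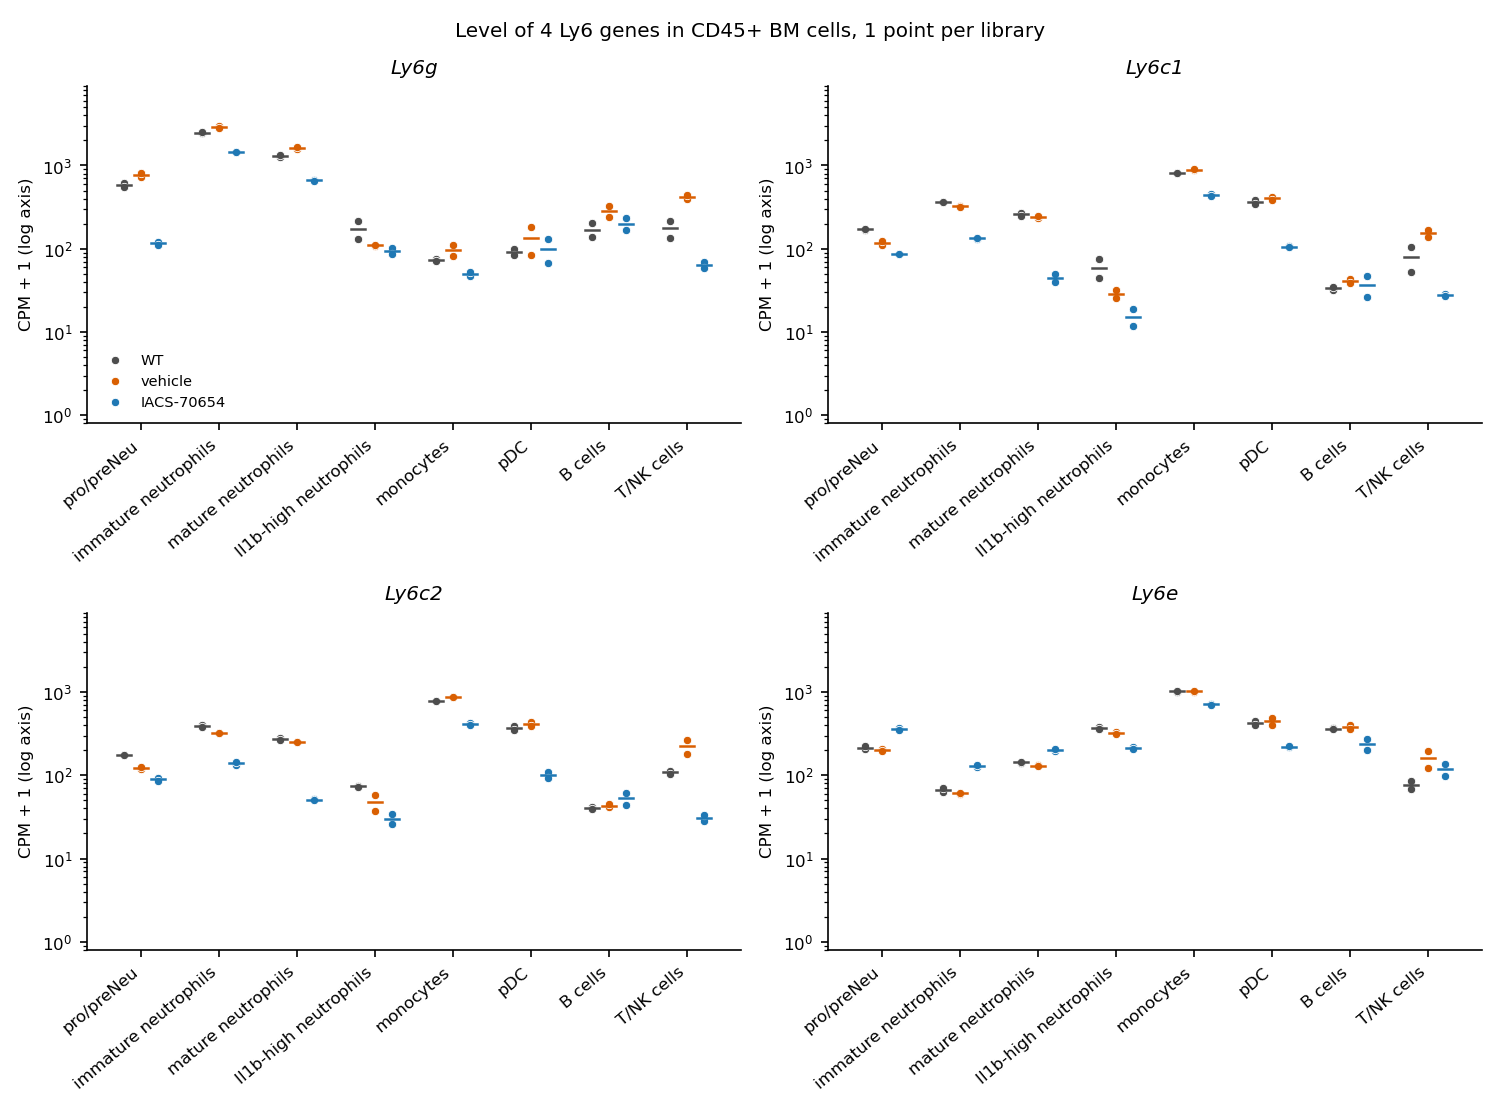
Levels of Ly6g, Ly6c1, Ly6c2 and Ly6e in 8 classes of CD45+ BM cells, as CPM + 1 on a log axis, with 1 point for each of the 2 libraries of WT, vehicle and IACS-70654 and a bar at their mean. Ly6g of immature and mature neutrophils lies above every class outside neutrophils, that of Il1b-high neutrophils lies among those classes, and in proNeu/preNeu its IACS-70654 points, at 119 and 111 CPM, lie between those of B cells and monocytes.

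Ly6g was lower in BM neutrophils after IACS-70654 and higher in neutrophils of tumor-bearing than of WT mice. Over all BM neutrophils, Ly6g stood at 1386 and 1346 CPM in WT mice, 1711 and 1708 CPM in vehicle-treated mice and 744 and 736 CPM in IACS-70654–treated mice. The 3 groups did not overlap, with vehicle highest and IACS-70654 lowest. The change with IACS-70654 against vehicle was -1.51 ± 0.03 (edgeR adjusted p = 3.39e-19), and vehicle stood 0.54 ± 0.03 above WT (adjusted p = 1.18e-11). Scaled by class totals, these changes were -1.21 and 0.32, and the increase in vehicle was then below the size threshold. In this class 26.2% of the 14022 genes tested were called between IACS-70654 and vehicle. Less RNA per cell and fewer Ly6g-expressing cells cannot be told apart in these class sums.

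ProNeu/preNeu, the proliferating neutrophil precursors, had the largest Ly6g change among the neutrophil stages. Their levels were 614 and 554 CPM in WT mice, 726 and 812 CPM in vehicle-treated mice and 119 and 111 CPM in IACS-70654–treated mice. Every IACS-70654 library lay far below every WT and vehicle library, and below the 165 and 230.4 CPM counted in B cells of the same IACS-70654 libraries. Monocytes of the same libraries had 46.2 and 52.3 CPM. B cells and monocytes should both lack Ly6g, so their levels were read as the background of free RNA in the droplets. B cells hold fewer UMIs per cell than monocytes, and the proNeu/preNeu value with IACS-70654 lies between both. The log2 change was -3.04 ± 0.07 (edgeR adjusted p = 1.83e-19), where 24.4% of genes were called. The class was made up differently in the groups, with 30.8% proNeu-like cells in WT, 26.2% in vehicle and 61.8% with IACS-70654. Divided by cluster, preNeu-like cells, with Camp, Ngp and Ltf of the secondary granules, gave -2.40 ± 0.05 (adjusted p = 1.43e-30), and proNeu-like cells, with Elane and Ms4a3 of the azurophil program, gave -1.33 ± 0.08 (adjusted p = 7.8e-22), so each part changed less than the whole class. Pooled Ly6g in the proNeu-like clusters was 167 and 82.0 CPM in vehicle and 66.0 and 48.0 CPM with IACS-70654, below B cells of the same groups. Vehicle monocytes, which are deeper than B cells, had 109 and 80.3 CPM. The cluster with 167 and 66.0 CPM lay above monocytes of both groups, so whether that part expressed Ly6g cannot be told. In the larger preNeu-like cluster, which all groups shared, pooled Ly6g was 909.6 CPM in WT, 1097 CPM in vehicle and 261 CPM with IACS-70654. The smaller preNeu-like cluster had 734, 849.9 and 139 CPM in the same order, so the decrease was also seen among cells of 1 cluster. Vehicle proNeu/preNeu stood 0.55 ± 0.06 above WT (adjusted p = 2.22e-06), a call lost when scaled by class totals (0.40), in preNeu-like (0.41) and proNeu-like (0.39) cells apart, and without the second WT (0.48) or second vehicle library (0.46).

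In immature neutrophils, the stage of Ltf, Camp and Ngp with the highest Ly6g, levels were 2473 and 2500.3 CPM in WT mice, 2945 and 2839 CPM in vehicle-treated mice and 1439 and 1435 CPM in IACS-70654–treated mice. Mature Cxcr2+ neutrophils had 1248 and 1322 CPM in WT mice, 1596 and 1653 CPM in vehicle-treated mice and 672 and 649.5 CPM in IACS-70654–treated mice. In each stage the groups kept the order vehicle, WT, IACS-70654 without overlap. The change with IACS-70654 was -1.26 ± 0.02 (edgeR adjusted p = 7.2e-117) in immature and -1.57 ± 0.03 (adjusted p = 2.05e-59) in mature neutrophils, against 15.7% and 19.8% of all genes called. A test of the stage-by-treatment term gave a difference of -0.33 ± 0.03, mature minus immature (adjusted p = 1.41e-20), with 5.84% of genes called for this term. Vehicle neutrophils exceeded WT by 0.47 and 0.47 in these stages, which passed the adjusted p but not the size threshold. Clusters within the stages separated by group: most immature cells fell in 2 clusters for WT and vehicle and in 2 others for IACS-70654, and mature cells fell in separate clusters for all 3 groups. Stage values therefore compare different clusters.

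Neutrophils were also divided into 3 parts along a score of mature against precursor markers, at the same score limits in every library. The Ly6g change with IACS-70654 was -1.96 ± 0.05 in the least mature part, -1.07 ± 0.03 in the middle and -1.10 ± 0.03 in the most mature part, so it was seen in all 3 parts. Equal limits did not give like cells. The most mature part held 19.7% and 18.6% immature neutrophils with IACS-70654 and 3.46% and 3.32% in vehicle. Il1b-high neutrophils had 213 and 129.8 CPM in WT mice, 108 and 109.7 CPM in vehicle-treated mice and 101 and 86.3 CPM in IACS-70654–treated mice, and their change of -0.24 ± 0.19 did not pass (edgeR adjusted p = 0.428). These levels are below those of B cells in the vehicle and IACS-70654 libraries, so no Ly6g expression can be read from them.

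**Figure D2:**
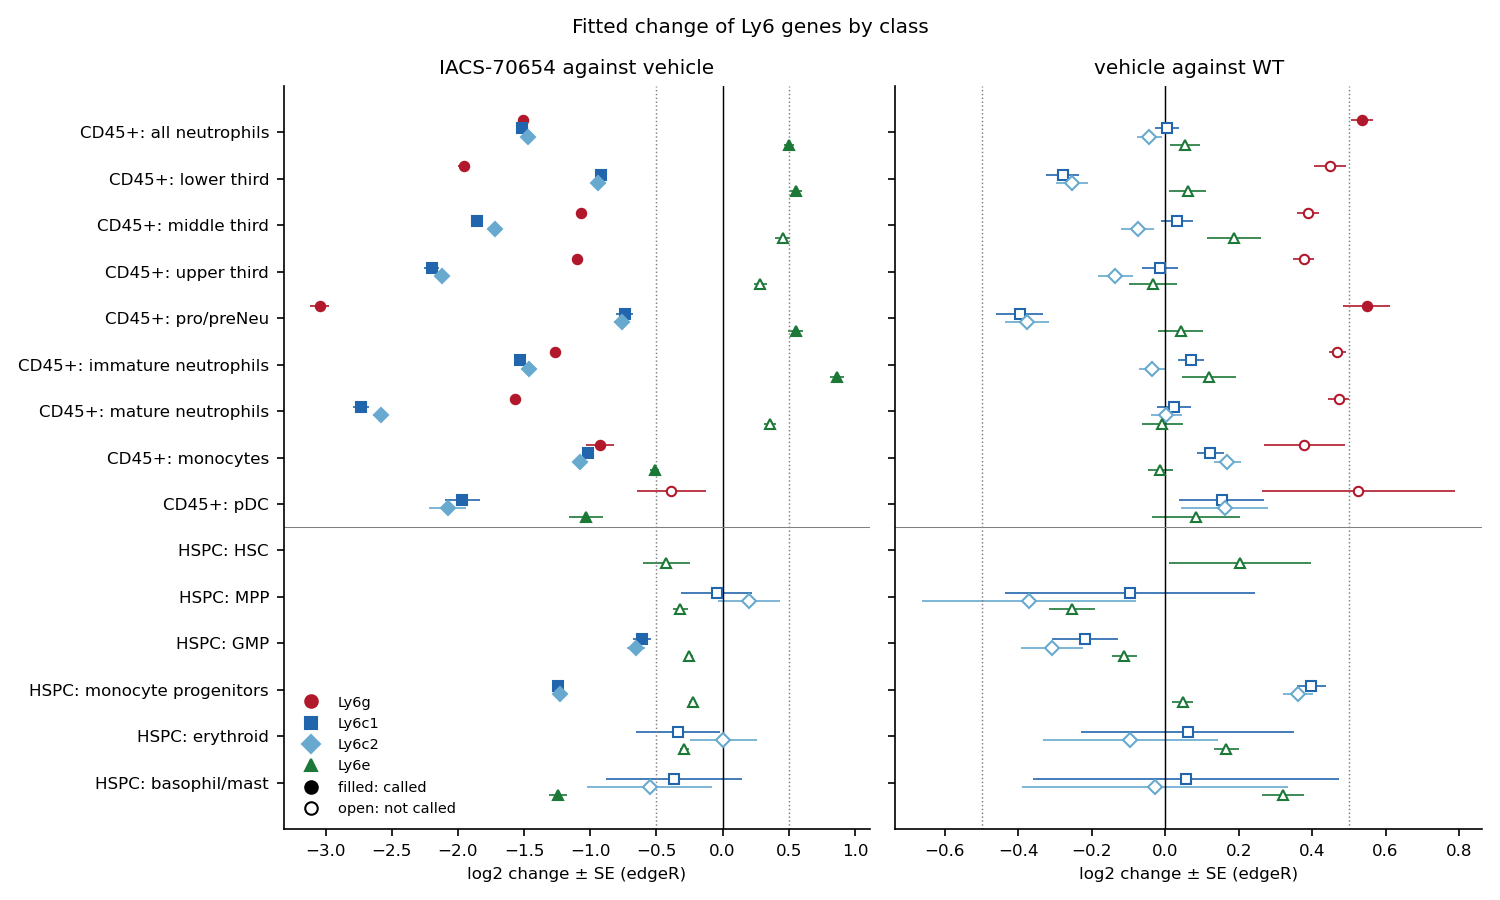
Log2 change ± SE of Ly6g, Ly6c1, Ly6c2 and Ly6e in 6 CD45+ classes, 3 parts of the neutrophils by maturation score and 6 HSPC classes for IACS-70654 against vehicle (left) and vehicle against WT (right), from edgeR with TMM scaling, with filled points for called changes. Ly6g, Ly6c1 and Ly6c2 lie below 0 in every plotted neutrophil class and in monocytes on the left, Ly6e lies above 0 in the proNeu/preNeu to mature stages and below 0 in monocytes and pDCs, and on the right the filled points are Ly6g in all neutrophils and in proNeu/preNeu. B cells, T/NK cells and Il1b-high neutrophils are not plotted.

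The share of cells with a Ly6g UMI was compared after each cell was thinned to 1000 UMIs, because neutrophils of IACS-70654–treated mice were deeper. Among all BM neutrophils it was 61.2% (59.4 to 62.9) and 62.1% (60.3 to 63.9) in WT, 60.1% (58.6 to 61.5) and 60.2% (58.8 to 61.5) in vehicle and 40.0% (38.5 to 41.5) and 39.8% (38.4 to 41.2) with IACS-70654, with exact 95% intervals that cover counting error only. The IACS-70654 libraries stood 20.2 percentage points below vehicle and did not overlap it. The intervals of WT and vehicle overlapped for all neutrophils, although their CPM did not. ProNeu/preNeu had 37.3% and 36.3% in WT and 42.4% and 46.9% in vehicle, where the interval of the first vehicle library overlapped those of WT. At least 2 UMIs were found in 72.2% and 70.2% of vehicle immature neutrophils against 62.8% and 63.9% of WT ones. Without thinning, the IACS-70654 difference was 9.99 points. B cells should lack the gene. At the same thinned depth, 7.19% and 7.88% of B cells from WT mice held a Ly6g UMI, as did 10.3% and 13.1% of those from vehicle-treated and 12.8% and 12% of those from IACS-70654–treated mice, from unthinned medians of 3001.5 to 4285 UMIs per cell in B cells and 3859 to 5989 in neutrophils. Monocytes, which are deeper, had 3.42% and 3.52% with IACS-70654. ProNeu/preNeu had 11.3% and 9.19% with IACS-70654, no higher than B cells and above monocytes, whereas immature neutrophils went from 90.2% and 87.8% to 64.7% and 65.6%.

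**Figure D3:**
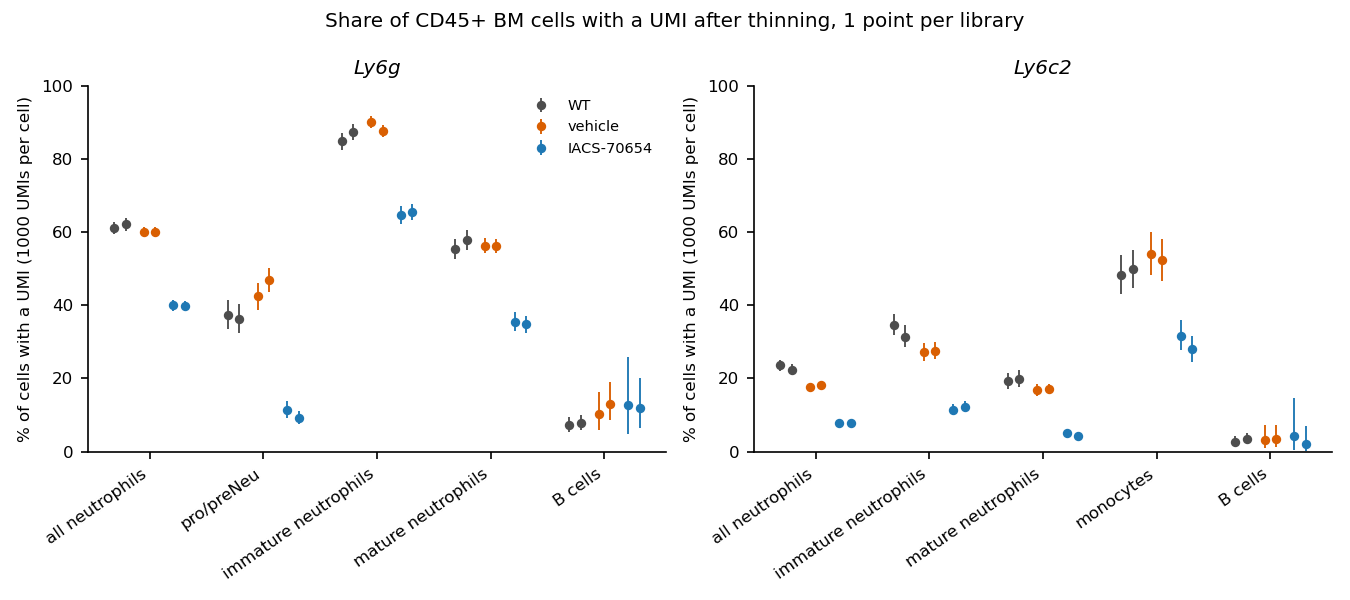
Percent of cells with at least 1 UMI of Ly6g and of Ly6c2 after thinning to 1000 UMIs per cell, by BM class and library, with exact 95% binomial intervals. The Ly6g share of immature neutrophils is 90.2% and 87.8% in vehicle and 64.7% and 65.6% with IACS-70654, and the Ly6c2 share of monocytes is 54.2% and 52.5% against 31.7% and 28.0%.

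A gate on RNA was set beside these levels, since Ly6G and Ly6C are the antigens of the flow gates. Cells with a Ly6g UMI at 1000 UMIs per cell took up 43.9% and 43.4% of the WT libraries, 53.8% and 54.5% of the vehicle libraries and 33.8% and 33.7% of the IACS-70654 libraries. Neutrophils made up 94.8% to 98.3% of that gate in every library. Within it, immature neutrophils made up 40.2% and 38.6% in vehicle and 62.0% and 64.2% with IACS-70654, mature neutrophils 45.5% and 45.6% against 28.0% and 26.6%, and proNeu/preNeu 11.4% and 13.1% against 5.20% and 4.33%. The stages also differed in number without a gate. Immature cells were 1219 of 4478 and 1451 of 5397 neutrophils in vehicle and 1570 of 4001 and 2019 of 5049 with IACS-70654. The part of this in the gate was not tested. The gate for a Ly6c UMI without a Ly6g UMI is the RNA counterpart of a monocyte gate. It took 14.4% and 14.1% of WT cells, 10.7% and 9.96% of vehicle cells and 10.7% and 10.8% of IACS-70654 cells. Ungated, monocytes were 288 of 5112 and 304 of 6087 cells in vehicle and 526 of 4865 and 655 of 6154 with IACS-70654. Of all monocytes, 68.4% and 70.1% fell in this gate in vehicle and 47.5% and 45.0% with IACS-70654. Neutrophils without a sampled Ly6g UMI made up 53.7% and 56.8% of it in vehicle and 47.4% and 49.8% with IACS-70654. These gates use sparse RNA counts at a fixed depth, and no surface protein was measured in these libraries.

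Outside neutrophils, Ly6g in CD45+ libraries lay below that of immature and mature neutrophils. Monocytes had 75.1 and 69.7 CPM in WT mice, 109 and 80.3 CPM in vehicle-treated mice and 46.2 and 52.3 CPM in IACS-70654–treated mice, below B cells in every library. Their change with IACS-70654 was called, at -0.92 ± 0.10 (edgeR adjusted p = 1.05e-07). T and natural killer (T/NK) cells, with 19 to 122 cells a library, had 216 and 133 CPM in WT mice, 390.4 and 442 CPM in vehicle-treated mice and 68.5 and 58.5 CPM in IACS-70654–treated mice. They stood above B cells of the vehicle libraries, at 238 and 322 CPM, and below those of the IACS-70654 libraries. Their fit left out the second vehicle library for its 19 cells, so 1 vehicle library is assumed to vary like the others, and it gave called changes of -2.68 and, for vehicle against WT, 1.12. The latter was lost with DESeq2, without the filter on low counts, with the replicate block and without the second WT library. Ly6g in B cells rose by 0.75 in vehicle (adjusted p = 0.00325), a call lost with DESeq2 (adjusted p = 0.222), without the first WT library (0.49, adjusted p = 0.482) and without the second vehicle library (0.48, adjusted p = 0.283). The part of free neutrophil RNA in these calls was not tested. In HSPC libraries, where Gr-1+ and CD11b+ cells had been depleted, no class exceeded 0.292 CPM of Ly6g, which is 0 to 2 UMIs per class and library.

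Ly6c1 and Ly6c2 were counted almost evenly in BM monocytes, pDCs and the neutrophil stages from proNeu/preNeu to mature, and whether a read belongs to 1 or the other is uncertain. Their last 500 transcript bases, where 3′ libraries read, share 44.2% of 30-base words, 20.0% of 50-base words and 8.52% of 90-base words, so at 90 bases most positions tell them apart and some do not. Ly6g shared 4.46% of 30-base words with either and none of 50 bases. Ly6c1 took 51.0% (50.5 to 51.5, exact 95% interval) of Ly6c UMIs in BM monocytes and 49.1% in all neutrophils. Of 2505 BM monocytes, 2317 held a UMI of either gene and 2094 of both, which is 90.4% of them. The share moved away from even in other BM classes and in tumors, where the experiment and Cell Ranger version also differ from BM. In BM it was 36.8% (30.1 to 43.8) in Il1b-high neutrophils, 41.7% (37.3 to 46.1) in multipotent progenitors (MPPs) and 39.25% (34.4 to 44.2) in erythroid progenitors. It was 31.7% (29.4 to 34.1) in tumor monocytes, 34.8% in tumor-associated macrophages (TAMs) and 33.0% in tumor pDCs, and 99.1% in tumor fibroblasts, with 1165 UMIs of Ly6c1 against 10 of Ly6c2. Endothelial cells held 76 UMIs of Ly6c1 and 0 of Ly6c2. The genes are therefore reported apart, with similar values in BM myeloid classes read as 1 signal. Summed, Ly6c changed with IACS-70654 by -1.49 in all neutrophils, -2.65 in mature neutrophils and -1.05 in monocytes.

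**Figure D4:**
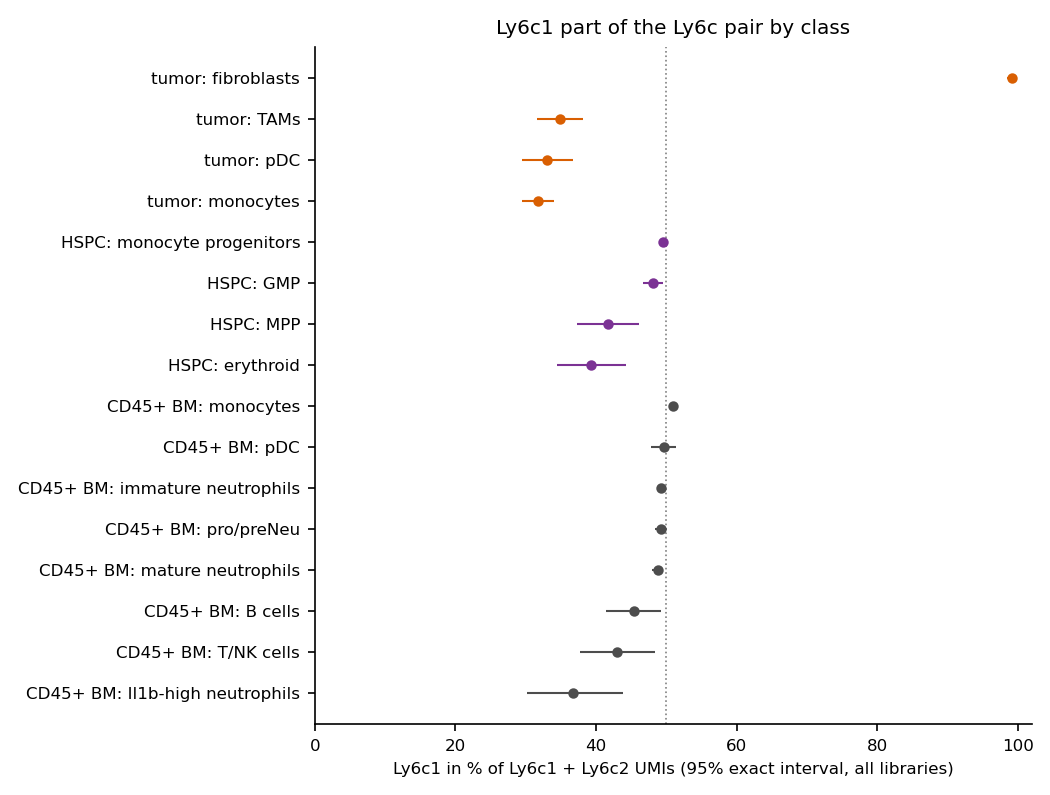
Ly6c1 as a percent of Ly6c1 plus Ly6c2 UMIs for classes with at least 200 such UMIs, pooled over libraries, with exact 95% binomial intervals and without plasma cells. BM monocytes and the neutrophil stages from proNeu/preNeu to mature sit near 50%, Il1b-high neutrophils at 36.8%, tumor monocytes, TAMs and pDCs near 31.7% to 34.8%, and fibroblasts at 99.1%.

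Ly6c RNA was lower with IACS-70654 in BM monocytes, pDCs and preNeu-like, immature and mature neutrophils. In monocytes, Ly6c2 had 771 and 785 CPM in WT mice, 880.3 and 879 CPM in vehicle-treated mice and 422 and 406 CPM in IACS-70654–treated mice. Ly6c1 had 812 and 818 CPM in WT mice, 876 and 908 CPM in vehicle-treated mice and 449 and 427 CPM in IACS-70654–treated mice. Vehicle and WT libraries lay close together, and both IACS-70654 libraries lay below all of them. The changes were -1.08 ± 0.04 for Ly6c2 (edgeR adjusted p = 8.64e-19) and -1.02 ± 0.04 for Ly6c1 (adjusted p = 2.18e-18), where 5.84% of genes were called. Both main monocyte clusters had it, with pooled Ly6c2 of 865 CPM in vehicle and 278 CPM with IACS-70654 in 1 and 902 and 482 CPM in the other. The thinned share of monocytes with a Ly6c2 UMI was 54.2% and 52.5% in vehicle and 31.7% and 28.0% with IACS-70654. B cells, where Ly6c2 is low, had 3.23% and 3.43% in vehicle and 4.26% and 2% with IACS-70654. In pDCs, which produce type I interferon and also carry Ly6C, Ly6c2 went from 439.6 and 393 CPM in vehicle to 108 and 91.4 CPM with IACS-70654. WT pDCs, at 393 and 351 CPM, lay near vehicle. The pDC changes were -1.97 ± 0.14 for Ly6c1 and -2.08 ± 0.14 for Ly6c2 (adjusted p = 1.33e-10 and 1.07e-10), with 4.45% of genes called.

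From proNeu/preNeu to mature neutrophils the Ly6c change was larger at each later stage, whereas that of Ly6g was largest in proNeu/preNeu, and the difference between stages was not tested for Ly6c. ProNeu/preNeu had Ly6c2 at 175 and 174 CPM in WT mice, 118 and 124 CPM in vehicle-treated mice and 91.0 and 85.1 CPM in IACS-70654–treated mice. Immature neutrophils had 403 and 379 CPM in WT mice, 317 and 324 CPM in vehicle-treated mice and 133 and 143 CPM in IACS-70654–treated mice. Mature neutrophils had 276 and 266 CPM in WT mice, 249 and 247 CPM in vehicle-treated mice and 50.5 and 49.3 CPM in IACS-70654–treated mice. By CPM, WT stood highest and IACS-70654 lowest in each stage without overlap of groups. The order of WT and vehicle may depend on scaling. Class totals moved the median of all genes between them by -0.25 in immature and -0.13 in mature neutrophils. With TMM scaling, no Ly6c change between vehicle and WT was called in any CD45+ class. In mature neutrophils Ly6c with IACS-70654 ended near the level of B cells of the same libraries, which had 61.0 and 43.0 CPM of Ly6c2 and, for Ly6c1, 46.7 and 25.4 CPM against 48.6 and 38.9 CPM. B cells were the background for Ly6g, so no Ly6c level above it can be read there. The Ly6c2 changes with IACS-70654 were -0.76 ± 0.06, -1.47 ± 0.04 and -2.58 ± 0.05 in this order (edgeR adjusted p = 3.27e-10, 5.05e-92 and 4.59e-55), and those of Ly6c1 were -0.74, -1.53 and -2.73. The Ly6c2 change in mature neutrophils exceeded that in monocytes by a stage-by-treatment term of -1.52 ± 0.07 (adjusted p = 9.10e-69), with 10.5% of genes called for that term. Scaled by class totals it was -1.22, and the proNeu/preNeu changes shrank to -0.44 for Ly6c1 and -0.46 for Ly6c2, below the size threshold. ProNeu-like cells alone had changes of 0.24 for Ly6c1 (adjusted p = 0.0552) and 0.02 for Ly6c2 (adjusted p = 0.909), which did not pass, and preNeu-like cells had -0.73 and -0.77. In Il1b-high neutrophils, with few Ly6c UMIs, the changes were -0.94 ± 0.41 and -0.66 ± 0.31 (adjusted p = 0.102 and 0.13), which did not pass. Between vehicle and WT, Ly6c differed in proNeu/preNeu by -0.40 for Ly6c1 and -0.38 for Ly6c2, past the adjusted p but not the size. Both passed when scaled by class totals, at -0.55 and -0.53, and in proNeu-like cells alone, at -0.86 and -0.50, and Ly6c1 did without the second vehicle library, at -0.50. The difference in all neutrophils was 0.00 and -0.04.

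The Ly6c decrease was present among Lin- c-Kit+ progenitors. In monocyte progenitors, marked by Irf8, Csf1r and F13a1, Ly6c2 had 229.9 and 206 CPM in WT mice, 288 and 286 CPM in vehicle-treated mice and 125 and 128 CPM in IACS-70654–treated mice. Granulocyte-monocyte progenitors (GMPs), marked by Mpo, Elane and Cebpe, had 68.6 and 59.2 CPM in WT mice, 51.5 and 55.8 CPM in vehicle-treated mice and 34.1 and 36.3 CPM in IACS-70654–treated mice. IACS-70654 libraries were lowest in both classes, while vehicle was above WT in monocyte progenitors and below it in GMPs. The changes with IACS-70654 in monocyte progenitors were -1.24 ± 0.04 for Ly6c1 and -1.23 ± 0.04 for Ly6c2 (edgeR adjusted p = 5.37e-36 and 1.46e-35), against 6.58% of genes called. In GMPs they were -0.61 ± 0.07 and -0.65 ± 0.07 (adjusted p = 7.33e-13 and 5.71e-15), against 6.99%. The GMP clusters held different numbers of cells in each group. The cluster with most Ly6c2 held 1388 GMPs in vehicle and 873 with IACS-70654, and the one with least held 432 and 776. Pooled Ly6c2 went from 64.1 to 45.5 CPM in the former and from 28.0 to 15.6 CPM in the latter. In the remaining cluster, with 474 and 575 cells, it went from 51.0 to 44.1 CPM. How much of the class change came from these cell numbers was not tested. The Ly6c1 change in GMPs was -0.47 without the first vehicle library. Vehicle exceeded WT in monocyte progenitors by 0.40 ± 0.04 and 0.36 ± 0.04 (adjusted p = 2.6e-12 and 8.31e-11), which did not reach the size threshold. MPPs and hematopoietic stem cells (HSCs) had Ly6c near the bottom of its range, at 4.96 to 9.26 CPM and 1.76 to 15.8 CPM over both genes. The Gr-1 antibody of the depletion binds Ly6C, so the cells with most Ly6C protein may not be in this sort, and its part in these levels was not tested.

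Ly6e moved in opposite directions in BM neutrophils and in other myeloid cells. In immature neutrophils it had 61.2 and 69.8 CPM in WT mice, 58.5 and 60.6 CPM in vehicle-treated mice and 126 and 132 CPM in IACS-70654–treated mice. ProNeu/preNeu had 206 and 222 CPM in WT mice, 203 and 194 CPM in vehicle-treated mice and 368 and 348 CPM in IACS-70654–treated mice. Monocytes, by contrast, had 1007 and 1029 CPM in WT mice, 1012 and 1017 CPM in vehicle-treated mice and 717 and 696 CPM in IACS-70654–treated mice. WT and vehicle overlapped or lay close in each, and the IACS-70654 libraries stood apart, above in the neutrophil stages and below in monocytes. The change with IACS-70654 was 0.86 ± 0.05 in immature neutrophils (edgeR adjusted p = 1.9e-36), 0.55 ± 0.06 in proNeu/preNeu (adjusted p = 2.79e-08) and -0.51 ± 0.03 in monocytes (adjusted p = 1.35e-12). The difference of 1.36 ± 0.06 between immature neutrophils and monocytes passed a test of the class-by-treatment term (adjusted p = 6.08e-51), with 8.5% of genes called for it. This pair of classes was chosen after the opposite directions were seen, so the test describes them and is no independent evidence. Over all neutrophils Ly6e rose by 0.50, and this was 0.48 without the second vehicle library and 0.49 without the first IACS-70654 library. The monocyte value was -0.49 without the second IACS-70654 library. Mature neutrophils had a change of 0.36, below the size threshold, which became 0.63 when scaled by class totals. ProNeu-like and preNeu-like cells taken apart had 0.19 and 0.50, neither of which was called.

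Ly6e was also lower with IACS-70654 in other BM classes. In pDCs it went from 492 and 401 CPM to 216 and 223 CPM, a change of -1.03 ± 0.13 (edgeR adjusted p = 4.14e-06). Il1b-high neutrophils, unlike the earlier stages, changed by -0.61 ± 0.12 (adjusted p = 3.49e-05), a call lost with DESeq2 and without the second IACS-70654 library. B cells changed by -0.67 (adjusted p = 0.00119), which was -0.45 without the second IACS-70654 library. Among HSPCs the basophil and mast cell progenitors, marked by Prss34, Mcpt8 and Cpa3, had 737 and 804 CPM in WT mice, 942 and 961 CPM in vehicle-treated mice and 419 and 455 CPM in IACS-70654–treated mice. Both IACS-70654 libraries lay below all others, and the change was -1.24 ± 0.07 (adjusted p = 3.74e-52), against 9.16% of genes called. The eosinophil-like class, with 13 to 117 cells a library and not tested, had 610.5 and 690.5 CPM in vehicle and 268 and 252 CPM with IACS-70654. In MPPs, GMPs, monocyte progenitors and erythroid progenitors the changes were -0.32, -0.25, -0.23 and -0.29, which stayed below the size threshold.

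Ly6a, the Sca-1 gene, was close to undetected in BM myeloid cells and HSPCs. HSCs, marked by Hlf, Mecom and Procr, had 5.93 and 10.6 CPM in WT mice, 26.7 and 16.8 CPM in vehicle-treated mice and 2.07 and 5.27 CPM in IACS-70654–treated mice, from 3 and 5 UMIs in WT, 25 and 7 in vehicle and 2 and 3 with IACS-70654. MPPs had 0.882 and 0.712 CPM in WT mice, 3.45 and 2.33 CPM in vehicle-treated mice and 0.816 and 0.982 CPM in IACS-70654–treated mice, from at most 20 UMIs in a library. Vehicle was above WT and IACS-70654 in both classes without overlap, although each value rests on a few UMIs. Ly6a did not pass the filter on low counts in HSCs and so was not tested there. The MPP change with IACS-70654 was -1.81 ± 0.47 (edgeR adjusted p = 0.00122), lost without either IACS-70654 library, and vehicle against WT gave 1.87 (adjusted p = 0.0828), which did not pass. BM monocytes had 11 and 15 UMIs in WT, 16 and 21 in vehicle and 15 and 4 with IACS-70654. Their change of -2.06 ± 0.47 (adjusted p = 0.00195) was lost with DESeq2 and without the second IACS-70654 library or either vehicle library. After thinning to 1000 UMIs, a Ly6a UMI was found in at most 1.94% of HSCs in a library and in at most 0.0897% of BM neutrophils.

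Counted over all classes, 28 of 39 tests of a member in a CD45+ class were called between IACS-70654 and vehicle, 3 higher and 25 lower, beside 15% of all gene-by-class tests in either direction and 7.05% lower. The 3 higher calls were Ly6e in all neutrophils, proNeu/preNeu and immature neutrophils, and the classes overlap because all neutrophils contain the stages. The lower calls were 6 of 9 for Ly6g, 7 of 9 each for Ly6c1 and Ly6c2, 4 of 9 for Ly6e and 1 of 3 for Ly6a. Of the Ly6g calls, that in monocytes lies in a class read as the background of free RNA. T/NK cells lay above B cells in vehicle and below them with IACS-70654. The Ly6c calls include T/NK cells, at -2.70 for Ly6c1 and -2.63 for Ly6c2, both lost with DESeq2 (adjusted p = 0.207 and 0.118) and without high doublet scores. For vehicle against WT, 5 of 39 were called, all higher, beside 4.53% in either direction and 2.43% higher. Of these 4 were Ly6g, in all neutrophils, proNeu/preNeu, B cells and T/NK cells. B cells were read as background, and the T/NK value rests on 1 vehicle library. The fifth was Ly6e in T/NK cells, at 1.34, lost without high doublet scores (0.82), without the filter on low counts, with the replicate block and without either WT library. In HSPC classes 6 of 21 were called with IACS-70654, all lower, beside 5.86% in either direction and 3.45% lower. For vehicle against WT, edgeR and DESeq2 each called 0 of 21 in HSPCs, where 1.07% of all tests were called by edgeR. At an unadjusted p under 0.05 edgeR had 11 and DESeq2 had 7 of these 21.

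In 2208L tumors, with 1 library per condition, no test between conditions was made, and intervals are exact 95% intervals for counting error only. Tumor-associated neutrophils (TANs) held few Ly6g UMIs. Vehicle TANs held 25 UMIs in 9 of 468 cells, anti–PD-1 TANs 48 UMIs in 16 of 555 cells, and neither IACS-70654 TANs, 245 cells, nor combination TANs, 308 cells, held any. As CPM these are 41.4 and 59.8 against 0 and 0. Against the floor of 3 UMIs per library, Ly6g was at least 5.07-fold lower with IACS-70654 than with vehicle and at least 7.98-fold lower with the combination than with anti–PD-1. These bounds take UMIs as independent and are too strong, since 5 cells held 84% of the UMIs with vehicle and 68.8% with anti–PD-1. The level was highest in a small TAN cluster with Retnlg, Wfdc21 and the secondary granule gene Ngp. There Ly6g was 127 CPM in 26 vehicle cells and 375 CPM in 44 anti–PD-1 cells, from 6 and 36 UMIs. It was 0 in 11 IACS-70654 and 4 combination cells. These hold 21473 and 5766 UMIs of all genes, too few to compare with the 6 vehicle UMIs. The main TAN cluster, with G0s2, Hdc and Cxcr2, had 34.1 and 17.0 CPM and 0 in the others. TANs, which carried S100a8, S100a9 and Cxcr2, thus had Ly6g RNA far below the 1596 and 1653 CPM of mature BM neutrophils in vehicle. Ly6c2 in TANs was 48.0 CPM with vehicle, 46.1 CPM with anti–PD-1, 2.72 CPM with IACS-70654 and 2.50 CPM with the combination, which is 29, 37, 1 and 1 UMIs. Ly6c1 was 18 and 22 UMIs with vehicle and anti–PD-1 and 0 in the others, at least 3.65-fold lower with IACS-70654 than with vehicle. Ly6e remained abundant, at 930.0 CPM with vehicle, 814 CPM with anti–PD-1, 786 CPM with IACS-70654 and 939.6 CPM with the combination, a log2 ratio of -0.24 (95% interval -0.45 to -0.03) for IACS-70654 against vehicle. Of all genes compared in TANs, 29.5% had a ratio over 0.5 in size.

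Tumor monocytes and TAMs, the cells that Ly6C divides in flow cytometry, had less Ly6c RNA with IACS-70654. Monocyte Ly6c2 was 531 CPM with vehicle, 506 CPM with anti–PD-1, 28.0 CPM with IACS-70654 and 67.3 CPM with the combination. The ratio was -4.25 (95% interval -4.57 to -3.93) for IACS-70654 against vehicle and -2.91 (95% interval -3.14 to -2.68) for the combination against anti–PD-1. Ly6c2 was thus low both with IACS-70654 alone and with the combination. Ly6c1 went the same way, at 258, 229.7, 15.3 and 28.5 CPM in the same order of conditions. Monocyte Ly6a was 150.5, 53.2, 6.36 and 14.1 CPM, a ratio of -4.56 (95% interval -5.26 to -3.91), but 5 of 154 vehicle cells held 75.5% of the 94 UMIs, so the interval is too narrow. Ly6e was 1445, 1338, 555 and 656 CPM, a smaller ratio of -1.38 (95% interval -1.49 to -1.27). In monocytes 26.3% of genes had a ratio over 0.5 in size. The monocyte class took up 7.80% of the cells with vehicle, 8.18% with anti–PD-1, 15.8% with IACS-70654 and 15.0% with the combination, from 154, 168, 747 and 759 cells. TAMs, with C1qa, Apoe and Ms4a7, had Ly6c2 at 20.7 CPM with vehicle, 87.5 CPM with anti–PD-1, 3.86 CPM with IACS-70654 and 10.3 CPM with the combination. Here anti–PD-1 alone stood highest, 2.08 (95% interval 1.73 to 2.43) against vehicle. Of its 266 UMIs, 208 came from 45 cells of a single cluster, and without that cluster, a division chosen after seeing the data, this ratio was 0.60, from 20.8 against 13.7 CPM. The ratio for IACS-70654 against vehicle was -2.43 (95% interval -2.91 to -1.95) with and -3.23 without that cluster. TAM Ly6a was 19.2, 58.9, 6.48 and 3.98 CPM, with -1.57 (95% interval -1.99 to -1.15) for IACS-70654 against vehicle. The 5 cells with most Ly6a held 51.7%, 67.6%, 49.0% and 35.7% of these UMIs, so the interval is too narrow. The same cluster held 132 of 179 UMIs with anti–PD-1 and 59 of 104 with IACS-70654, and without it Ly6a was 19.4, 16.9, 3.13 and 3.37 CPM, a ratio of -2.63 for IACS-70654 and -0.20 for anti–PD-1 against vehicle. TAM Ly6e was 403, 488, 322 and 402 CPM. In TAMs 17.2% of genes had a ratio over 0.5 in size.

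**Figure D5:**
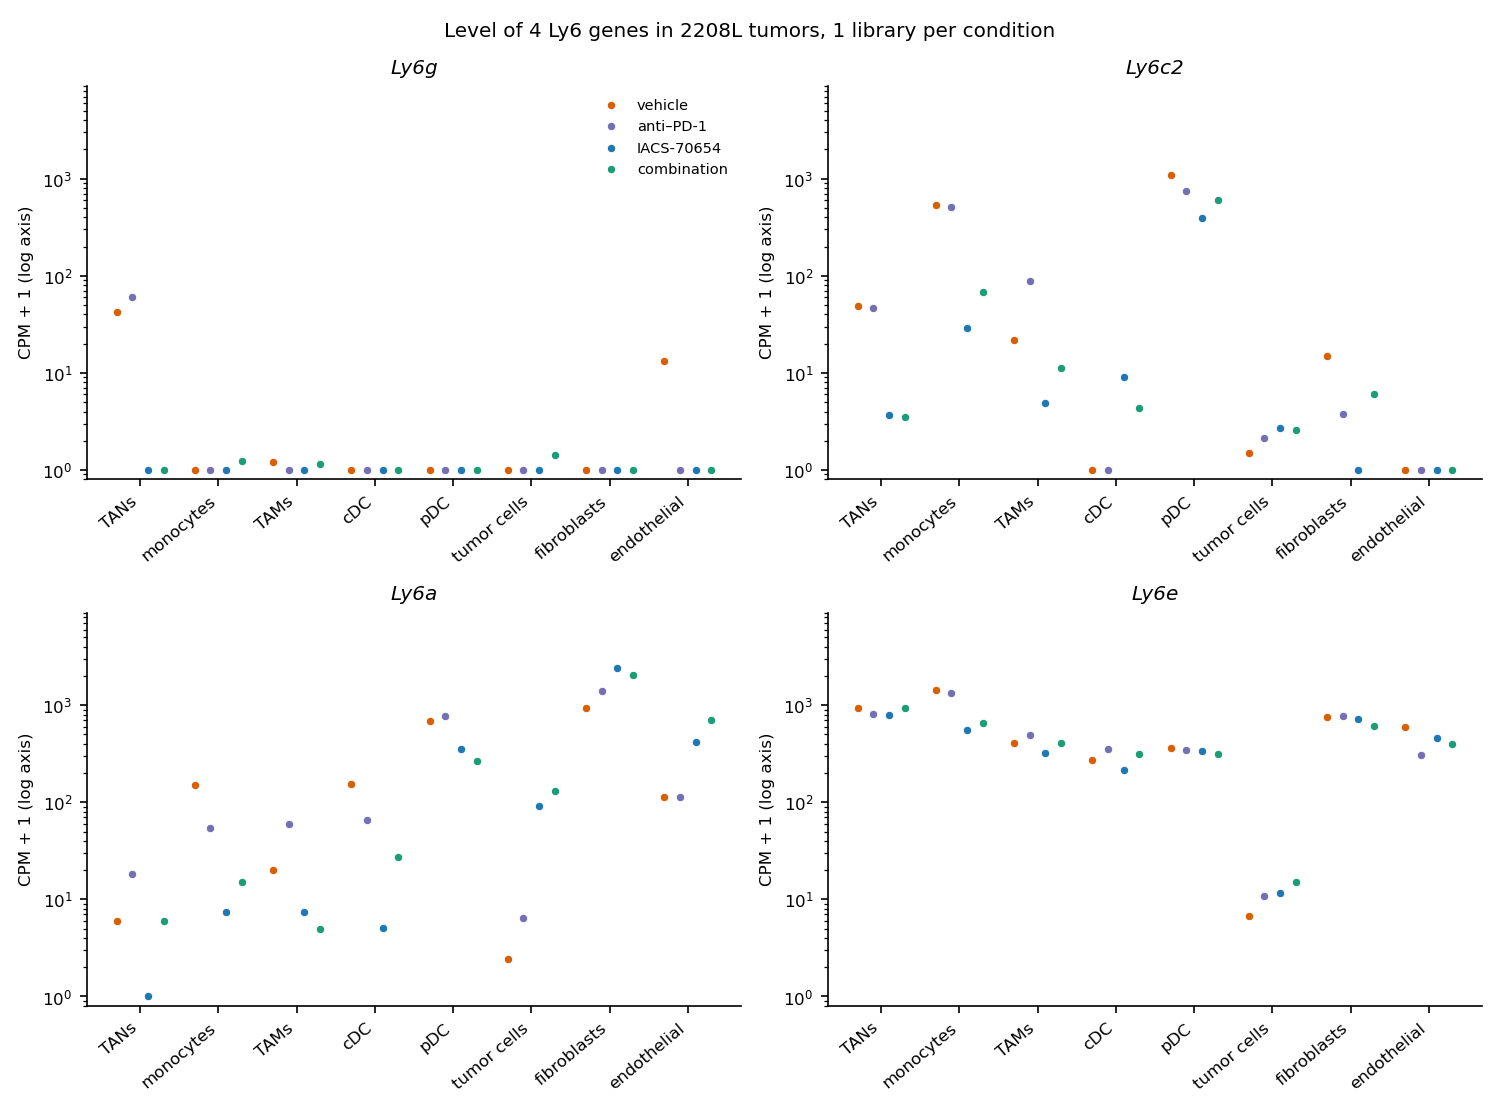
Levels of Ly6g, Ly6c2, Ly6a and Ly6e in 8 classes of 2208L tumor cells for vehicle, anti–PD-1, IACS-70654 and the combination, as CPM + 1 on a log axis with 1 point for the library of each condition. Ly6c2 and Ly6a of monocytes are lower in both libraries with IACS-70654, at 28.0 and 67.3 CPM of Ly6c2 against 531 and 506 CPM, while Ly6a of tumor cells and fibroblasts is higher.

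Ly6a and Ly6c1 in tumor stroma did not follow the myeloid cells. Fibroblasts, with Col1a1, Col3a1 and Dcn, had Ly6a at 937 CPM with vehicle, 1394 CPM with anti–PD-1, 2401 CPM with IACS-70654 and 2042 CPM with the combination, a ratio of 1.36 (95% interval 1.19 to 1.53) for IACS-70654 against vehicle, from 34 to 46 cells a library. The 5 fibroblasts with most Ly6a held 59.9%, 71.4%, 42.8% and 40.0% of these UMIs, so the interval is too narrow. Fibroblast Ly6c1 was 554, 726, 706 and 1005 CPM in the same order, and 36.5% of genes had a ratio over 0.5 in size in this small class. The anti–PD-1 value of Ly6a in fibroblasts turned to a ratio of -1.09 against vehicle when cells with high doublet scores were left out, whereas the ratio for IACS-70654 was then 1.23. Tumor pDCs, 18 to 71 cells a library, had Ly6c2 at 1092 CPM with vehicle, 752 CPM with anti–PD-1, 393 CPM with IACS-70654 and 598 CPM with the combination and Ly6a at 694, 775, 353 and 266 CPM. The ratio for IACS-70654 against vehicle was -1.47 (95% interval -1.87 to -1.07) for Ly6c2 and -0.97 (95% interval -1.45 to -0.48) for Ly6a, where 36.4% of genes had a ratio over 0.5 in size. The 5 pDCs with most Ly6a held 85.2% of its UMIs with vehicle and 63.4% with IACS-70654, so the Ly6a interval is too narrow. Endothelial cells, 11 to 40 a library, had Ly6a at 111, 113, 412 and 708 CPM, from 9, 11, 58 and 159 UMIs. In tumor T/NK cells, where Sca-1 is a marker of activation and memory, Ly6a was 213, 303, 212 and 279.7 CPM, with no separation of conditions with and without IACS-70654.

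In tumor cells, with Epcam, Krt8 and Krt18, most Ly6a UMIs were found in the libraries with IACS-70654 and in 1 cluster. The levels were 1.45 CPM with vehicle, 5.37 CPM with anti–PD-1, 90.3 CPM with IACS-70654 and 131 CPM with the combination, from 6, 28, 965 and 2107 UMIs. A UMI was found in 5 of 294, 14 of 356, 30 of 720 and 84 of 1106 cells, and the 5 cells with most Ly6a held 86.3% of the UMIs with IACS-70654 and 47.1% with the combination. The ratio of 5.96 (95% interval 4.84 to 7.41) for IACS-70654 against vehicle therefore describes a few cells, and its interval, which takes UMIs as independent, is too narrow. The cluster held 891 of the 965 UMIs with IACS-70654 and 1965 of the 2107 with the combination, from 172 and 297 cells. With anti–PD-1 it held 17 of 28 UMIs in 34 cells, or 27.5 CPM, and its 27 vehicle cells held 0. A small cluster of 13 to 55 cells a library had 355 CPM with IACS-70654 and 396 CPM with the combination and 0 in the others, and the main tumor cell clusters had 0.887 to 5.71 CPM in every library. In these cells 25.8% of genes had a ratio over 0.5 in size. Ly6e was low, at 5.78, 9.78, 10.6 and 14.1 CPM. In all classes together, 24 of 33 member-by-class ratios with at least 10 UMIs over both libraries were over 0.5 in size for IACS-70654 against vehicle, 8 higher and 16 lower. With at least 50 UMIs these were 16 of 24, 6 higher and 10 lower, beside 26.2% of all gene-by-class ratios with that many UMIs.

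Other genes were set beside the members, and each list is small. In all BM neutrophils, where 26.2% of all genes were called, 5 of 34 other Ly6 and uPAR family genes could be tested, and with IACS-70654 0 rose and 3 fell, with a list median of -0.53 against -0.02 for all genes. They were Lypd6b (-2.28), Ly6g5b (-1.92) and the urokinase receptor gene Plaur (-0.53). Of 14 other antigens used in flow gates 12 were tested, 3 rose and 5 fell, with a median of -0.46, and among those that fell were Cd3d (-1.96), a gene of the T cell receptor complex, Cd84 (-0.91), an MDSC marker, and Itgam (-0.57), which encodes CD11b. Of 24 GPI anchor assembly genes tested, 6 rose and 1 fell with a median of 0.16, led by Pgap1 (2.69), Pigp (1.17) and Pigt (0.70). Pigb fell (-0.62). The 7 calls of 24 are near the share of all genes. The interferon-response list, 12 genes, had 0 higher and 2 lower in all neutrophils, Isg15 (-0.99) and Rsad2 (-1.09), yet 6 of 11 were higher in immature neutrophils with a median of 0.51, among them Oasl2 (1.30), Ifit2 (1.00) and Ifit1 (0.94), beside 15.7% of all genes called. In mature neutrophils 4 rose and 2 fell of 12, beside 19.8%. ProNeu/preNeu had 1 higher and 0 lower of 11 (median -0.14), beside 24.4%. Il1b-high neutrophils had 0 higher and 3 lower of 8 (median -0.74), beside 566 of 6130 genes called. Between vehicle and WT, 8 of 12 were higher in all neutrophils, including Oasl2 (2.10), Ifi27l2a (1.06) and Isg15 (0.93), beside 9.84% of all genes called in either direction and 5.22% higher. By stage, 1 of 11 was higher in proNeu/preNeu and in immature, 5 of 12 in mature and 1 of 8 in Il1b-high neutrophils. Over all genes 265 of 12115, 381 of 11040, 513 of 10231 and 39 of 6130 were higher in this order.

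In BM monocytes the interferon list had 4 higher and 0 lower of 12 with IACS-70654, among them Rsad2 (1.52), Ifit1 (1.34) and Oasl2 (1.23), in the class where Ly6c1, Ly6c2 and Ly6e fell and 5.84% of all genes were called. For vehicle against WT 0 were higher and 4 lower, among them Rsad2 (-2.46) and Ifit1 (-1.59), where no member was called, beside 0.98% of all genes in either direction and 0.419% lower. Of the gate antigens 11 were tested, and with IACS-70654 Flt3 rose (1.13) while Adgre1, which encodes F4/80, fell (-0.76). Of 22 GPI anchor assembly genes and 1 other Ly6 gene tested in monocytes, edgeR called 0 with IACS-70654, and 1 GPI gene was lower in vehicle than in WT. In monocyte progenitors and in GMPs 3 of 10 interferon-response genes rose and 0 fell with IACS-70654, beside 6.58% and 6.99% of all genes called.

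The genes with the pattern most like each member were found across the 31 named classes by Pearson r of log2(mean CPM + 1) among 11595 genes, as a description. Ly6g was closest to Ngp (r = 0.98), a secondary granule gene, Cstdc6 (0.97) and Cd177 (0.97), a neutrophil surface antigen that is itself a Ly6-domain protein. Ly6c1 was closest to Ly6c2 (0.71), Hsd11b1 (0.64) and Man1c1 (0.64), and Ly6c2 to Pqlc3 (0.76), Ly6c1 (0.71) and Rubcnl (0.69). Ly6a was closest to Ackr3 (0.87), Rgmb (0.85) and Epcam (0.84), and Ly6e to Creg1 (0.68), Gm5617 (0.67) and Slc36a4 (0.59). The classes share libraries and differ in depth and size, so these values rank genes and carry no p.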

How the data were processed

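scRNA-seq libraries of BM (CD45+ Ter119- cells and Lin- c-Kit+ HSPCs) and of viable 2208L tumor cells were analyzed, with groups taken from the labels. The authors deposited raw UMI counts per gene and cell, made with Cell Ranger 7.1.0 for tumors and 7.2.0 for BM by the file headers and with build mm10 by the submitters' notes, from CellPlex 3′ libraries. The filters, members and gene lists were chosen with earlier results of these data known.

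Cells with 200 to 6000 genes and at most 10% mitochondrial UMIs were kept. Clustering per sort used 2000 variable genes without the members, 30 components, 20 neighbors and Leiden resolution 1 (Python 3.11.15, scanpy 1.11.5, leidenalg 0.10.2), and clusters were named from marker lists. Scrublet's own threshold marked almost no cells in most libraries, so doublets were kept and the 5% of cells with the highest scores were left out as an alternative. UMIs were summed per library and class (at least 20 cells) and tested with edgeR 4.0.16 (R 4.3.3; filterByExpr, TMM, glmQLFTest) over the 6 libraries of a sort. DESeq2 1.42.0, library totals, no filter, a 5% mitochondrial limit, leaving out libraries and a replicate block were alternatives. The class-by-treatment term was fitted with library as a block. Tumor ratios used CPM with exact 95% intervals from the binomial split of the UMIs, and background counts genes with at least 50 UMIs over both libraries. Shares used cells thinned to 1000 UMIs. The edgeR step was tested on simulated data.

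Total UMIs were 15590289 to 68415534 per library. Named genes are the 5 members in each class, up to 4 genes with the lowest adjusted p of each list in a class, and the 3 genes most like each member among those with at least 20 CPM in a class. The value of 1 gene among the gate antigens is not reported here.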

Additional observations from a re-analysis of the deposited data

Results flagged for a closer look

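The following 3 results stood out because an effect of IACS-70654 differed between cell classes of the same libraries, by edgeR's test of the class-by-treatment term with library as a block. The log2 change of Ly6g differed by -0.33 ± 0.03, mature minus immature neutrophils (adjusted p = 1.41e-20), and 5.84% of 11520 genes were called for this term. At equal limits of the maturation score the changes were -1.07 in the middle and -1.10 in the most mature part, and the difference between these was not tested. These parts held a larger share of immature neutrophils with IACS-70654 than in vehicle, so they do not compare like cells. That of Ly6c2 differed by -1.52 ± 0.07, mature neutrophils minus monocytes (adjusted p = 9.10e-69), with 10.5% of 12425 genes called, and Ly6c2 of mature neutrophils with IACS-70654 lay near the level of B cells of the same libraries. The Ly6e change was 1.36 ± 0.06 higher in immature neutrophils than in monocytes (adjusted p = 6.08e-51), with 8.5% of 12797 genes called, and here the direction itself differed, since Ly6e rose in immature neutrophils and fell in monocytes. This pair of classes was chosen after these directions were seen, so its test is no independent evidence. Both libraries of IACS-70654 and both of vehicle lay on the stated side in each class. The neutrophil stages were made of different clusters in vehicle and IACS-70654, and the part of this in the terms was not tested.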

How the results depend on the processing

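The 28 member calls between IACS-70654 and vehicle in CD45+ classes ranged from 21, out of the 30 tests left when Ly6c1 and Ly6c2 were summed, to 29, and from 24 to 28 when a library was left out. The 5 calls between vehicle and WT were 2 with DESeq2, 3 with the replicate block and 3 to 5 without a library. The 6 HSPC calls with IACS-70654 were 4 to 6 without a library, and HSPCs had 0 calls between vehicle and WT under every alternative. Replicate numbers did not pair the libraries: deviations of same-numbered libraries correlated at -0.44, -0.03 and -0.21 in CD45+ cells and at 0.07, 0.04 and -0.45 in HSPCs. With the replicate block, 28 CD45+ and 6 HSPC calls were made between IACS-70654 and vehicle.

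The differences between classes were -0.38 to -0.26 for Ly6g, -1.53 to -1.52 for Ly6c2 and 1.30 to 1.40 for Ly6e without a library. The Ly6g share difference of -20.2 points was -9.99 without thinning and -20.1 for at least 2 UMIs. Of 33 tumor ratios, 24 were over 0.5 in size, and 24 or 25 under the alternatives. Directions turned for Ly6c1 (0.24) and Ly6c2 (0.019) in proNeu-like cells alone, a division chosen after seeing the data, and, for anti–PD-1 against vehicle without high doublet scores, for Ly6a in tumor conventional dendritic cells (0.60) and fibroblasts (-1.09) and Ly6e in tumor cells (-0.14), and the cause was not tested. Of 1051 other comparisons in CD45+ classes 994 stayed uncalled or stayed called in the same direction, as did 545 of 548 in HSPCs. Direction was not compared where neither setting was called. In tumors 400 of 411 ratios neither turned from a size over 0.5 nor moved by more than 0.5 of their interval's width. Ratios without an interval were checked for direction only. Depth limited Ly6a in BM and Ly6g in TANs, and all tumor values rest on 1 library per condition.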

Other observations

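Plasma cells carried Ly6a RNA in BM where most other classes had little. They also carried Ly6c RNA, as did BM monocytes, pDCs and neutrophils. In HSPC libraries, 21 to 92 plasma cells a library, marked by Jchain and Mzb1, had Ly6a at 180.4 and 282 CPM in WT mice, 290.3 and 303 CPM in vehicle-treated mice and 144 and 117 CPM in IACS-70654–treated mice, above every other HSPC class. Their Ly6c1 was 303 to 527 CPM and their Ly6c2 230.0 to 491 CPM. In tumor conventional dendritic cells (cDCs) Ly6a was 153 CPM with vehicle, 65.1 CPM with anti–PD-1, 4.07 CPM with IACS-70654 and 26.6 CPM with the combination, and in tumor T/NK cells Ly6c2 was 127, 78.3, 21.2 and 73.3 CPM in the same order, from 1 library each. The cDC values rest on 26 UMIs in 3 of 30 vehicle cells, 19 of them in 1 cell, and on 13 UMIs in 4 of 35 anti–PD-1 cells, 10 of them in 1 cell. The other cDC values rest on 3 and 16 UMIs and those of T/NK cells on 25, 23, 4 and 22.

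The tumor cells with most Ly6a were looked at after their values were seen. There were 45 with at least 10 Ly6a UMIs, 35 of them in the combination library, 9 with IACS-70654 and 1 with anti–PD-1, beside 2343 tumor cells with 0. A single cluster held 31 of the 35 combination cells and 7 of the 9 IACS-70654 cells. The cells with 0 came from every tumor library and from several clusters. Treatment and cluster therefore cannot be told apart from Ly6a in the values below. Pooled, the 45 cells had Krt19 at 393 CPM against 2.20 CPM, Ptn at 1303 against 7.27 CPM, Ly6d at 237 against 0.616 CPM and Prlr at 256 against 101 CPM. Isg15, an interferon-response gene, was 2160.2 against 248 CPM, and Ly6c1 was 31.6 against 0.293 CPM. Epcam was alike, at 1563 against 1705 CPM, and Col1a1, Ptprc and depth gave 0 against 0.762 CPM, 6.31 against 11.6 CPM and a median of 17068 against 13799 UMIs. No test was made, since the cells were chosen by Ly6a and come from single libraries.

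A TAM cluster with the interferon-inducible genes Ifi209, Phf11d and Trim30d had Ly6c2 at 190 CPM in 28 vehicle cells, 817 CPM in 45 anti–PD-1 cells, 24.4 CPM in 243 IACS-70654 cells and 72.0 CPM in 256 combination cells. These were 4.35%, 9.09%, 10.2% and 11.5% of the TAMs. Its Ly6c2 was lower in both libraries with IACS-70654, 1 library each. The cluster held 208 of the 266 TAM Ly6c2 UMIs with anti–PD-1, 41 of 62 with IACS-70654, 114 of 145 with the combination and 35 of 96 with vehicle.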
